A study of Mus musculus with 15 samples.

Results

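The promoters of 10 genes of the actin cytoskeleton and its regulator SRF were followed across 15 ChIP-MNase libraries of mouse cells. The genes (Actb, Actg1, Acta2, Tagln, Tagln2, Myl9, Tpm1, Cnn1, Vcl and Srf) were chosen by name, and every annotated start site that carried a RefSeq name of these genes was taken, which gave 11 of 25881 promoters, with 2 starts for Tpm1. In ChIP-MNase, large pieces of cross-linked chromatin are recovered with an antibody and digested on the beads with micrococcal nuclease, so that the protected fragments mark nucleosomes. H3K4me1 chromatin was measured in dendritic cells (DCs), which were differentiated in vitro with GM-CSF from mouse bone-marrow progenitor lines, and in 3T3 fibroblasts, an immortalised mouse line. Either cell-type was taken without stimulus or stimulated for 1 h, DCs with 100 ng/ml LPS and fibroblasts with 5 ng/ml TNF-α. Each of these 4 sets is a pool of 2 replicates made by the authors, and none has an error between replicates. A further 8 single H3K4me1 libraries come from fibroblasts, 2 replicates each of control cells without knockdown and of cells with 1 stable retroviral shRNA against both BAF ATPases, Brg1 and Brm, non-stimulated or given TNF-α at the same dose and time. All libraries come from bulk cells, in which fewer cells of a state and less signal per cell cannot be told apart. Pol-II phosphorylated at serine 7 (S7P, 2 replicates) or serine 5 (S5P, 1 library) served as the target in stimulated fibroblasts without knockdown. The occupancies do not report mRNA, so the knockdown itself could not be checked in them.

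Actin exists as free monomers and as filaments, and cells adjust the supply of its building blocks to the state of the filaments. SRF is a transcription factor that binds a short A/T-rich element, the CArG box, in the promoters of actins, actin-binding proteins and its own gene. Its MRTF cofactors are held back by free actin monomers, whereas its ternary complex partners of the Elk family respond to kinase signalling. Fibroblasts and smooth muscle cells are known for high levels of many of these genes, whereas leukocytes use chiefly the cytoplasmic actins.

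Promoter sequences were read from mm9, the build of the deposited coordinates, and are shown to place the CArG boxes whose occupancy is described further on. Capitals mark a CArG box, or, in Acta2 and in the second stretch of Myl9, an element of the same form with a single C or G among its 6 central bases. Annotated exons were left out, except for Actg1, where 30 bases around the box are shown without a check for exons. Exons of Actg1 itself and of a divergent gene, 0610009L18Rik, which starts 195 bp upstream of it, overlap that upstream region.
Srf upstream of its start site, chr17:46693112-46693311 (minus strand): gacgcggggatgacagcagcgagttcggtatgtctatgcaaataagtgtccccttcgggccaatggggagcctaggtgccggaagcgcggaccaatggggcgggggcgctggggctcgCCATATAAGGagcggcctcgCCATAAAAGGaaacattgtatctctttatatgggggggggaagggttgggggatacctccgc
Vcl upstream of its start site, chr14:21748356-21748555 (plus strand): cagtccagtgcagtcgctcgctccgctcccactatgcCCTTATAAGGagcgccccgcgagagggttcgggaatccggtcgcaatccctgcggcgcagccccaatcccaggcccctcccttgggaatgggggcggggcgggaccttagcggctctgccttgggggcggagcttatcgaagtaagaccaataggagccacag
Actg1 upstream of its start site, chr11:120209880-120209909 (minus strand): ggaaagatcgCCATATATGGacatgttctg
Tagln upstream of its start site, chr9:45744142-45744341 (minus strand): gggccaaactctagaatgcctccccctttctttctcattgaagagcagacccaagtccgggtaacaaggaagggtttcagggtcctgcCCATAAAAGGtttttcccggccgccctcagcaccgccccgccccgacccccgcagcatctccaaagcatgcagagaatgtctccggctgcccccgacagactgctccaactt
Myl9 upstream of its start site, chr2:156601001-156601155 (plus strand): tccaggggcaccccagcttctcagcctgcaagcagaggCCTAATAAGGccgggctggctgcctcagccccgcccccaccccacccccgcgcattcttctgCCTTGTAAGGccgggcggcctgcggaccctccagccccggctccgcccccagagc
Acta2 upstream of its start site, chr19:34329827-34330026 (minus strand): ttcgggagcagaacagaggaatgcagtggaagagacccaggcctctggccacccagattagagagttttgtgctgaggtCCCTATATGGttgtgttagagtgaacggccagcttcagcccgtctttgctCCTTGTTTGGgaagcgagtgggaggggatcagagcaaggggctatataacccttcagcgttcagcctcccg

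A CArG box lay between −250 and −1 bp in 4 of the 10 promoters searched (Srf, Actg1, Tagln and Myl9), against 1.32% of 25738 promoters with sequence. The genes were listed as SRF targets, which are known for such elements, so this count only describes them. Srf, which encodes the factor itself, has a pair of boxes at −82 to −73 bp and −62 to −53 bp. None of the 10 had TATAAA between −40 and −16 bp on its sense strand, a match found at 2.23% of promoters. Only this exact form was searched, so related forms, such as tatataa in the printed Acta2 sequence, were not counted. In Vcl, which encodes the adhesion protein vinculin, the nearest box upstream lies at −263 to −254 bp, and in Cnn1, the smooth muscle calponin, the only box within 1 kb lies downstream at 873 to 882 bp. Acta2, the smooth muscle α-actin, has no exact box within 1 kb and carries looser elements at −121 to −112 bp and −71 to −62 bp, a form that 7.0% of promoters hold between −250 and −1 bp. CpG islands (CGIs, here more than 50% GC with CpG at over 0.6 of its expected frequency, within 200 bp of the start) were found at 7 of the 11, against 48.3% of all promoters. Those without were Acta2, Tagln, Myl9 and Cnn1, genes of the smooth muscle contractile apparatus, whereas both starts of the tropomyosin gene Tpm1 had one.

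Transcript levels before stimulation are part of the deposited promoter annotation as FPKM from public RNA-seq, which is not a sample of these libraries. Actb, the β-actin of every cell, stood at 354.7 FPKM in DCs and 730.2 in fibroblasts, above 99.9% and 99.8% of promoters in the respective cell-type. Actg1, the other cytoplasmic actin, stood at 81.2 FPKM (percentile 99.8) in DCs but 3.98 (percentile 67.9) in fibroblasts. Myl9, a myosin regulatory light chain, was listed at 0 in DCs and was at 10.7 FPKM in fibroblasts. Acta2 was at 0.175 and 32.8 FPKM (percentiles 58.4 and 93.5), and was classed as active (above 0.02 times the mean) in both cell-types. Vcl was at 2.02 FPKM in DCs (percentile 86.3) and 58.8 in fibroblasts (percentile 96.9), and Tagln2, a transgelin found in many tissues, at 22.5 and 48.8 (percentiles 99.0 and 96.0). Srf was at 1.15 FPKM in DCs and 6.88 in fibroblasts (percentiles 78.3 and 74.5). Tagln, the smooth muscle transgelin, was at 0.467 and 4.56 FPKM (percentiles 66.8 and 69.4), and Cnn1 was low in both at 0.0342 and 0.245 (percentiles 50.1 and 48.9). The scales of the columns differ, so that FPKM cannot be compared between the cell-types. By percentile Actb, Actg1, Srf, Tagln2, Cnn1 and the internal start of Tpm1 (74.8 in DCs, 58.2 in fibroblasts) were not higher in fibroblasts. The labelled cell-types matched their markers in these columns: 7 of 8 DC markers were active in DCs and 1 in fibroblasts, where Cd86, Flt3 and Tyrobp were at 0, and all 8 fibroblast markers were active in fibroblasts and 3 in DCs, where Pdgfra was at 0. Markers of lymphocytes and of endothelium were active in neither cell-type, and 1 of 2 epithelial markers was active in DCs.

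Coverage decides how precisely a single promoter can be read. The deposited coverage score counts H3K4me1 fragments over 2 kb around the start, and 13559 promoters (52.4%) exceed 100. Of the members, 5 did so: Tpm1 at its upstream start (1390) and internal start (1018), Acta2 (318.5), Vcl (114.2) and Myl9 (108.8). The most highly transcribed member, Actb, had the lowest score of the 11 at 63.0 (percentile 29), and Actg1 (67.0), Tagln2 (69.8), Tagln (76.8), Cnn1 (91.8) and Srf (97.5) were also below 100. Spread evenly, these fragments would place 4.72 fragments of Actb and 104 of the upstream Tpm1 start into the 150 bp upstream of the start. Values of the low-coverage members therefore rest on very few fragments. Over all high-coverage promoters, the share of bins holding a fragment ranged from 82.0 to 90.2% in pooled sets and from 63.6 to 78.1% in single H3K4me1 libraries. It was 69.2 and 80.0% with S7P and 81.2% with S5P.

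Depletion is given as the log2 NDR ratio, the mean occupancy from −150 to 0 bp over that from −1000 to −500 bp, with 0.1 added to both. Negative values mean fewer nucleosomes in the nucleosome depleted region (NDR) than in the flank. A window without any fragment gives about −4 in pooled sets and about −3 in single libraries, so these values are a floor set by the added 0.1 and by the flank.

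Srf had a depleted start region in both cell-types. Its log2 NDR ratio was −4.16 and −4.34 in non-stimulated and LPS-treated DCs and −4.21 and −4.25 in non-stimulated and TNF-α-treated fibroblasts, and the window was empty in all 4 sets. The empty stretch ran from −260 to 20 bp in non-stimulated DCs and also in non-stimulated fibroblasts, so that it contained both CArG boxes. In the control fibroblasts the ratio was −2.46 and −3.34 without stimulus and −2.95 and −0.56 after TNF-α, and in BAF-knockdown fibroblasts −3.12 and −1.90, and −0.77 and −3.22. Replicates of stimulated cells thus differed by more than 2 on the log2 scale in either genotype. Downstream, the highest peak between 20 and 220 bp, taken as the +1 nucleosome, moved between 25 and 215 bp across the 15 libraries.

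Vcl was depleted to the same floor in 3 of the 4 pooled sets. The ratio was −4.25 and −4.24 in the DC sets, −4.32 in non-stimulated and −0.72 in TNF-α-treated fibroblasts. Control libraries gave −3.36, −3.13, −3.08 and −2.96 (mean −3.13 ± 0.17, SD, n = 4), all with an empty window, so that their spread is that of the flank, and the BAF-knockdown libraries −0.78, −3.27, −3.29 and −3.19 (mean −2.63 ± 1.24, SD, n = 4). The window was empty in 10 of 12 H3K4me1 libraries, with the pooled stimulated fibroblasts and knockdown replicate 1 without stimulus as exceptions. The control libraries after TNF-α, also from stimulated fibroblasts, did not share the value of the pooled set. The +1 peak of Vcl lay between 85 and 135 bp in 14 of 15 libraries. In the 8 single H3K4me1 libraries it lay between 85 and 135 bp for Vcl and between 65 and 105 bp for Myl9. Over all 15 libraries the peak of Myl9 ranged from 25 to 215 bp, with 11 of 15 between 85 and 135 bp.

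**Figure D1:**
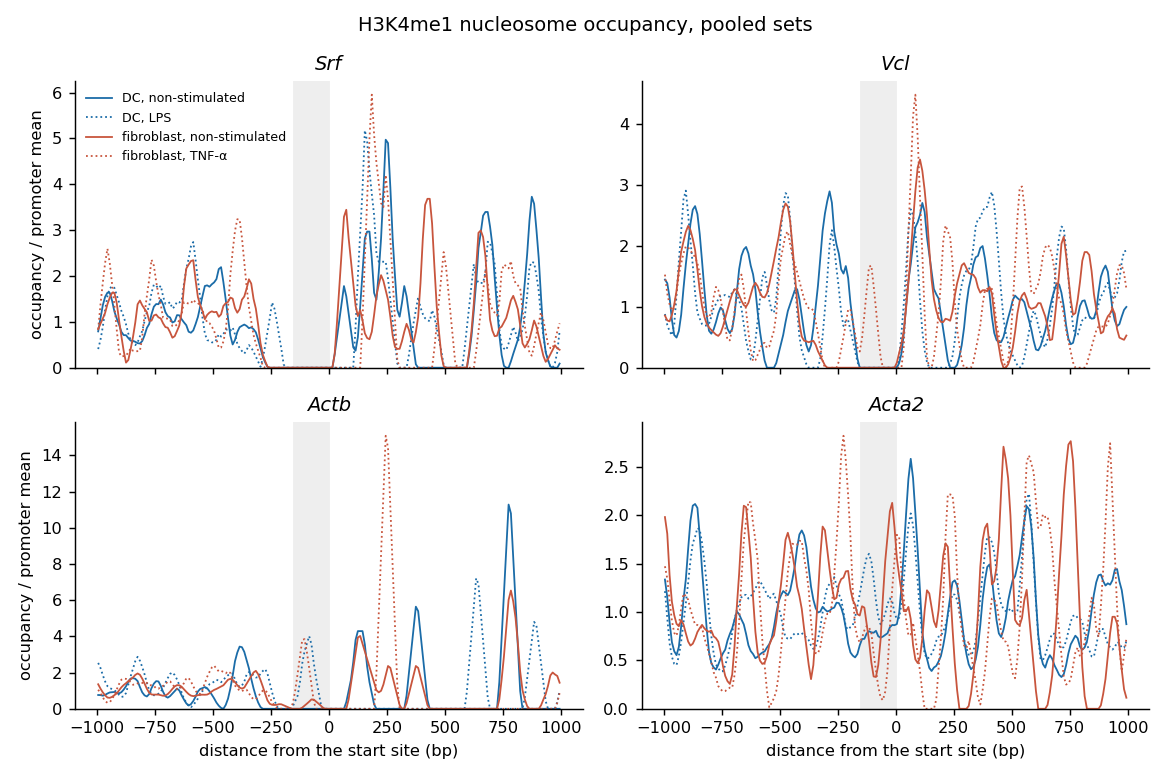
Nucleosome occupancy from −1000 to 1000 bp of the start site divided by the promoter's mean, for Srf, Vcl, Actb and Acta2 in the 4 pooled H3K4me1 sets (blue, DCs; red, fibroblasts; solid, non-stimulated; dotted, stimulated), with the −150 to 0 bp window shaded. Srf is empty in the window in all 4 sets, Vcl in 3, and Acta2 in none.

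The cytoplasmic actins varied from library to library. Actb was at −4.06 in non-stimulated and 0.36 in LPS-treated DCs, and at −2.12 and 0.12 in fibroblasts without and with TNF-α. Its single control libraries gave −1.0, −3.13, −0.55 and −1.59 and the knockdown libraries −0.67, −3.20, −3.30 and −3.38, so that 3 of the 4 in each genotype fell below −1. Its window held no fragment in 5 of 12 H3K4me1 libraries. Actg1 was empty in both DC sets (−4.08 and −4.12) and stood at −0.011 and −2.68 in fibroblasts, where its percentile of expression was lower. In single fibroblast libraries it ranged from −3.28 to 0.92 with a median of −0.14, and 3 of 8 were below −1. The divergent start 195 bp upstream lies close to its depleted window, and fragments of the pair cannot be told apart.

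The promoters without a CGI were not depleted in DCs. Acta2, Tagln, Myl9 and Cnn1 lay between −0.26 and 0.42 in non-stimulated DCs and between −0.18 and 1.13 after LPS, with 0 of 4 below −1 in either set, against 23.5 and 24.9% of all promoters without a CGI. Of the 7 members with a CGI, 4 and 6 were below −1, against 49.6 and 55.0% of all CGI promoters. With 11 promoters in all, these shares are a description.

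In fibroblasts these 4 promoters diverged. Myl9 was at 0.42 and −0.18 in DCs and at −3.29 and −1.30 in fibroblasts without and with TNF-α, a depletion found in the cell-type in which its transcript was detected. The single libraries of Myl9 gave −0.39, −2.98, −1.14 and −1.42 in control and −1.44, −0.45, −0.14 and −1.58 in knockdown cells, 5 of 8 below −1. Tagln was at 0.33 and −0.064 in DCs and at −2.90 and 0.047 in fibroblasts. Its single libraries ranged from −3.43 to −0.44 with a median of −2.24, so that all 8 lay below both DC values. Acta2 was at −0.21 and 0.20 in DCs and at 0.25 and −0.33 in fibroblasts, without depletion in any pooled set, although its transcript was at percentile 93.5 in fibroblasts. Its control libraries gave 0.072, 0.47, −1.22 and 0.20, and its knockdown libraries −0.95, −2.35, −1.28 and −0.61. Cnn1, not classed as active in either cell-type, was at −0.26 and 1.13 in DCs and at 0.28 and 0.22 in fibroblasts, and 2 of its 8 single libraries were below −1. Tagln2, which has a CGI, was at −0.89 and −2.64 in DCs and −1.41 and 0.016 in fibroblasts, and ranged from −3.25 to 0.32 in the single libraries.

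Tpm1 encodes tropomyosin, which runs along actin filaments, and its promoters have the highest coverage of the group. The upstream start (chr9:66897020, minus strand) was at 2.40e-05 FPKM in DCs and 213 in fibroblasts (percentiles 43.4 and 99.4). The internal start, 5342 bp downstream at chr9:66891678, was at 0.899 and 1.26 FPKM (percentiles 74.8 and 58.2). At the upstream start the log2 NDR ratio was −0.18 and −1.06 in DCs and −1.36 and −2.84 in fibroblasts, lower in fibroblasts in both states. At the internal start it was −0.83 and −1.07 in DCs and −0.22 and −1.44 in fibroblasts. Both starts were shallower than Srf in all 4 pooled sets, and both were deeper than Vcl in the stimulated fibroblasts. The single libraries did not hold a steady order: the upstream start ranged from −3.33 to 0.45 and the internal start from −3.62 to 0.53, each with 3 of 8 below −1.

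**Figure D2:**
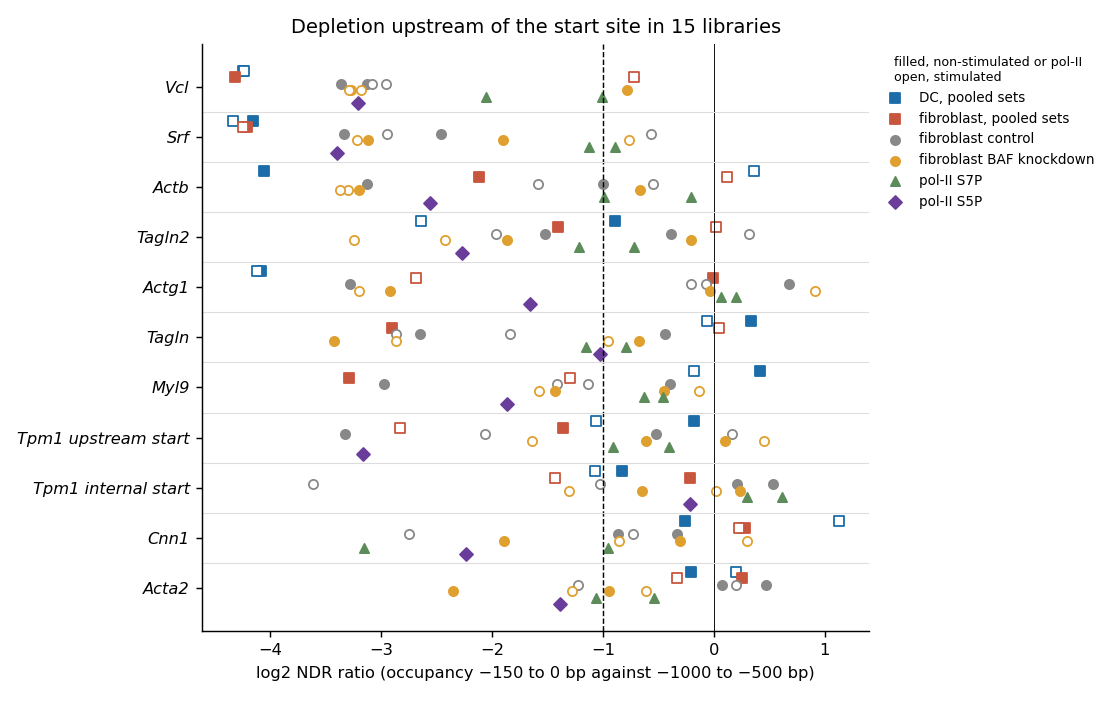
Log2 NDR ratio (x axis) of the 11 promoters (y axis, ordered by their median over 12 H3K4me1 libraries) in each of the 15 libraries, 1 point per library. Vcl and Srf lie below −1 (dashed line) in 10 of 12 H3K4me1 libraries, whereas Acta2 and Cnn1 do so in 3 and 2.

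Ordered by their median over the 12 H3K4me1 libraries, Vcl (−3.23) and Srf (−3.17) came first, followed by Actb (−1.85), Tagln2 (−1.46), Actg1 (−1.44), Tagln (−1.40), Myl9 (−1.22), the upstream (−0.84) and internal (−0.74) Tpm1 starts, Cnn1 (−0.32) and Acta2 (−0.27). The SD between libraries ran from 0.837 for Acta2 to 1.95 for Actg1, and neighbours in the order lay closer than their SDs except Srf and Actb (SD 1.30 and 1.52), whose medians lay about as far apart as those SDs. Both Vcl and Srf were below −1 in 10 of 12 libraries, a number reached or passed by 6.89% of all promoters. Per library, members below −1 numbered 4, 6, 7 and 5 in the pooled sets of non-stimulated DCs, stimulated DCs, non-stimulated fibroblasts and stimulated fibroblasts, against 35.9, 39.2, 36.2 and 39.4% of all 25881 promoters. In the control libraries they numbered 5 and 6 without stimulus (28.6 and 37% of all promoters) and 8 and 6 after TNF-α (29.5 and 37.2%). In the knockdown libraries they numbered 2 and 8 (28.9 and 31.2%), and 6 and 7 (36.1 and 35.4%).

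To compare the cell-types, differences of the log2 NDR ratio between pooled sets were taken, with a difference beyond 1 counted. The pooled sets have no replicates and were compared without a test. Before stimulation, 2 of the 5 high-coverage members were higher in DCs, that is more depleted in fibroblasts (Myl9, 3.71, and the upstream Tpm1 start, 1.18), against 22% of high-coverage promoters, and 0 were lower, against 17.2%. Among the low-coverage members, Tagln was higher in DCs by 3.23, and Actg1 and Actb were lower in DCs by 4.07 and 1.94. Over all 11 members, 3 were higher and 2 lower, against 23.7% and 19.9% of all promoters. Srf and Vcl differed by 0.050 and 0.072 only, since both windows were at the floor. Between stimulated sets, 2 of the 5 were higher in DCs (the upstream Tpm1 start by 1.78 and Myl9 by 1.12, against 24.2%) and 1 was lower (Vcl, by 3.51, against 17.9%), and over all 11 members 2 were higher and 3 lower (24.9 and 21.3% of all promoters). Myl9 and the upstream Tpm1 start were the members that kept a difference beyond 1 in the same direction in both states, together with Actg1, which was lower in DCs by 4.07 and 1.44. None of the 3 kept this under every alternative. With the window at −100 to 50 bp, the non-stimulated upstream Tpm1 start was at 0.12, the stimulated Myl9 at 0.25, the stimulated Actg1 at 0.32 and the stimulated Vcl at −0.47. With 0.5 added in place of 0.1, the non-stimulated upstream Tpm1 start was at 0.88, the stimulated Myl9 at 0.80 and the stimulated Actg1 at −0.30.

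**Figure D3:**
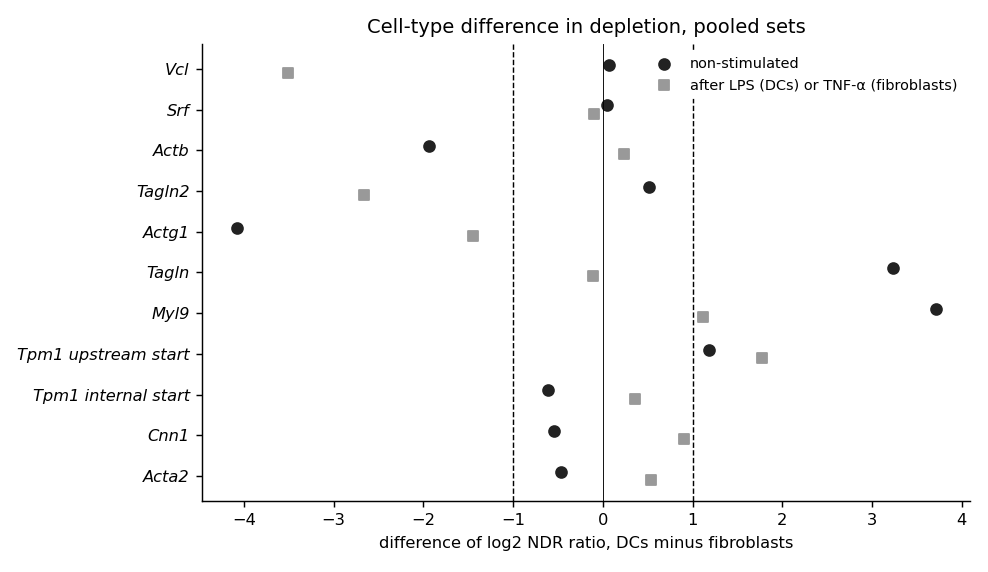
Difference of the log2 NDR ratio between DCs and fibroblasts (x axis) for the 11 promoters (y axis), before (circles) and after (squares) stimulation, from 1 pooled set each. Points right of 1 are more depleted in fibroblasts and points left of −1 more depleted in DCs, with Myl9 and the upstream Tpm1 start at the right in both states, though each falls below 1 in 1 state with the window at −100 to 50 bp or with 0.5 added.

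Stimulation was first read in the pooled sets. In DCs, LPS moved 0 of the 5 high-coverage members beyond 1 in either direction, against 14.8% of high-coverage promoters higher and 21% lower. Of the low-coverage members, Actb (4.42) and Cnn1 (1.39) were higher and Tagln2 (−1.75) lower after LPS, so that over all 11 members 2 were higher and 1 lower, against 18.5 and 24.3% of all promoters. In fibroblasts, TNF-α was accompanied by higher ratios of Vcl (3.60) and Myl9 (1.99), against 15.8%, and lower ratios of the upstream (−1.48) and internal (−1.22) Tpm1 starts, against 23.4%. With 0.5 added, 1 of the 5 was higher and 0 lower, as Vcl was at 1.70, Myl9 at 0.94 and the Tpm1 starts at −0.81 and −0.97. Among low-coverage members of the fibroblast sets, Tagln (2.95), Actb (2.24) and Tagln2 (1.42) were higher and Actg1 (−2.67) lower, whereas Srf differed by −0.037. Over all 11 members 5 were higher and 3 lower after TNF-α, against 17.4 and 23.4% of all promoters.

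Replicated libraries were used to test TNF-α and the knockdown. The 8 control and knockdown libraries were fitted with limma at each high-coverage promoter, using terms for TNF-α and for the knockdown, and p-values were adjusted over 13559 promoters by Benjamini-Hochberg. Upon TNF-α, 0 of 5 members passed an adjusted p of 0.05, against 0% of all promoters tested (780 had an unadjusted p under 0.05, none of them a member). The internal Tpm1 start moved most, by −1.56 ± 0.78 (SE, adjusted p = 0.899 by limma), from 0.20, 0.53, 0.24 and −0.65 in non-stimulated to −1.02, −3.62, 0.019 and −1.30 in stimulated libraries. The groups overlapped, since the stimulated knockdown replicate 1 lay within the non-stimulated range. Vcl, which differed by 3.60 between the pooled sets, differed by −0.49 ± 0.61 (SE, adjusted p = 0.952 by limma) in the replicated libraries, so the difference of the pooled sets was not seen again. Myl9 differed by 0.25 ± 0.66 (SE, adjusted p = 0.988 by limma), the upstream Tpm1 start by 0.32 ± 0.89 and Acta2 by −0.040 ± 0.56.

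BAF complexes slide and evict nucleosomes with ATP, and Brg1 and Brm are their catalytic subunits. On BAF knockdown, 0 of 5 members passed, against 0% of the promoters tested (712 had an unadjusted p under 0.05, none of them a member). Acta2 moved most, by −1.18 ± 0.56 (SE, adjusted p = 0.922 by limma), with means of −0.12 ± 0.76 in control and −1.30 ± 0.75 in knockdown cells (SD, n = 4 libraries each). Of its control libraries 3 lay above all 4 knockdown libraries, and the stimulated control replicate 1 lay among them. The upstream Tpm1 start differed by 1.01 ± 0.89, Myl9 by 0.58 ± 0.66, the internal Tpm1 start by 0.55 ± 0.78 and Vcl by 0.50 ± 0.61. The value of Vcl came from knockdown replicate 1 without stimulus, and without that library it was −0.14. When all 25881 promoters were fitted, the low-coverage members could be tested too, and 0 of 11 passed for either term, with Srf at 0.076 ± 0.78 for the knockdown and 0.83 ± 0.78 for TNF-α and Actb at −1.07 ± 0.87 and −0.20 ± 0.87 (SE). The test of whether the response to TNF-α differed with the knockdown called 0 of 5 members, against 0% of promoters, with a smallest adjusted p of 0.897. These tests had little power for moderate shifts. In simulated libraries, 10 of 100 promoters shifted by 2 on the log2 scale were recovered and 88 of 100 shifted by 4. The simulation drew normal values with 1 common SD (1.21) for every promoter. Real promoters differ in spread and empty windows sit at the floor, so these shares need not hold for the members.

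Patterning is the congruence of a promoter's 200 bins with the mean profile of active promoters of the cell-type, and a higher level means an arrangement more like that profile. Vcl was the only member with a positive level in all 15 libraries, 6.97 to 13.1 in control and 6.41 to 12.3 in knockdown cells. In the pooled sets Actb reached 25.3 and 21.5 in non-stimulated DCs and fibroblasts but −2.89 and −12.3 after stimulation. Its single control libraries gave 7.08 and 13.5 without stimulus and 0.91 and 13.7 after TNF-α. The knockdown libraries of Actb gave 2.88 and 11.3 without stimulus and 12.1 and 14.2 after TNF-α. Levels after TNF-α were thus not regularly lower in the single libraries. Acta2 was negative in all 4 pooled sets, from −6.26 to −1.33. For the knockdown 0 of 5 members passed, against 0% of promoters (792 with an unadjusted p under 0.05), and Acta2 differed by 3.06 ± 1.84 (SE, adjusted p = 0.868 by limma). For TNF-α 0 of 5 passed, against 0% (770 with an unadjusted p under 0.05), and the internal Tpm1 start differed by 8.59 ± 4.23 (SE, adjusted p = 0.870 by limma).

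Chromatin recovered with pol-II is that of alleles carrying polymerase, with S5P typical of promoters and S7P of initiating and elongating polymerase. Pol-II libraries have paired-end reads cut to 140 to 180 bp and H3K4me1 libraries single-end reads, so antibody and sequencing type cannot be told apart. In the S5P library 10 of the 11 members were below −1, against 46.6% of all promoters, the highest count and also the highest background of the 15 libraries. Srf (−3.40), Vcl (−3.21), the upstream Tpm1 start (−3.16), Actb (−2.56), Tagln2 (−2.27), Cnn1 (−2.23), Myl9 (−1.86), Actg1 (−1.66), Acta2 (−1.39) and Tagln (−1.03) were depleted, and the internal Tpm1 start (−0.22) was not. With 1 library there was no test. Acta2 and Cnn1, not depleted in pooled H3K4me1 sets, were among the 10, and the 6 low-coverage members had fragments in 87 to 100% of their bins in this library, against 43.5 to 98.5% in the pooled H3K4me1 set of stimulated fibroblasts.

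In the S7P libraries the ratios of the members were higher than with S5P, that is less depleted, with Cnn1 (−3.16) and Tagln (−1.16) in replicate 1 as exceptions. Members below −1 numbered 4 and 3, against 32.9 and 29.6% of all promoters. Srf was at −0.89 and −1.13, Vcl at −1.01 and −2.06, Actb at −0.21 and −0.99 and Actg1 at 0.064 and 0.20. Against the stimulated control libraries, 0 of 5 high-coverage members passed, against 0% of promoters (1237 with an unadjusted p under 0.05). The nearest was the internal Tpm1 start, at 0.61 and 0.30 with S7P and −1.02 and −3.62 with H3K4me1, a difference of 2.78 ± 0.92 (SE, adjusted p = 0.427 by limma), the only member with an unadjusted p under 0.05. Vcl differed by 1.48 ± 0.83 (SE, adjusted p = 0.651 by limma).

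Occupancy at the CArG boxes was read within 25 bp of each box and divided by the promoter's mean, so that 1 is the average of the promoter. At the boxes of Srf it was 0 in 10 of 12 H3K4me1 libraries for either box, and 0 with S5P. Over all promoters, the same positions were at 0 in 24.5 to 43.4% of promoters, depending on the library. The exceptions for Srf were the stimulated knockdown replicate 1 (1.04 and 1.65) and the stimulated control replicate 2 (0.045 and 0.58).

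The upstream box of Vcl, centred at −258 bp, was occupied in DCs and at or near 0 in most H3K4me1 libraries of fibroblasts. It lay at 2.09 and 1.61 times the promoter's mean in non-stimulated and stimulated DCs, that is under a peak of occupancy, and at 0 and 0.080 in the pooled fibroblast sets. The single fibroblast libraries gave 1.48, 0, 0 and 0 in control and 0, 0, 0 and 0.062 in knockdown cells. Pol-II chromatin of stimulated fibroblasts gave 1.38 and 0.49 with S7P and 0.41 with S5P. All fibroblast H3K4me1 libraries but the first control replicate were thus below both DC sets by more than 1.5 units, and that replicate was also lower. Over all high-coverage promoters the same position averaged 1.04 to 1.09 in the 12 libraries. The box of Tagln at −107 bp was likewise at 1.68 and 1.73 in DCs, and at 0.099 and 0.92 in pooled fibroblasts and 0 to 1.21 in the single libraries. The box of Myl9 at −157 bp was at 0.96 and 0.63 in DCs and at 0.078 and 0.094 in pooled fibroblasts, with 0 to 0.84 in the single libraries. At the box of Actg1 (−96 bp) the ratio was 0 in 6 of 12 H3K4me1 libraries, and this position was at 0 in 23.5 to 41.2% of all promoters. With S7P it was 0.84 and 1.22, and with S5P 0.28. These cell-type differences were not tested, and few fragments lie behind each value.

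**Figure D4:**
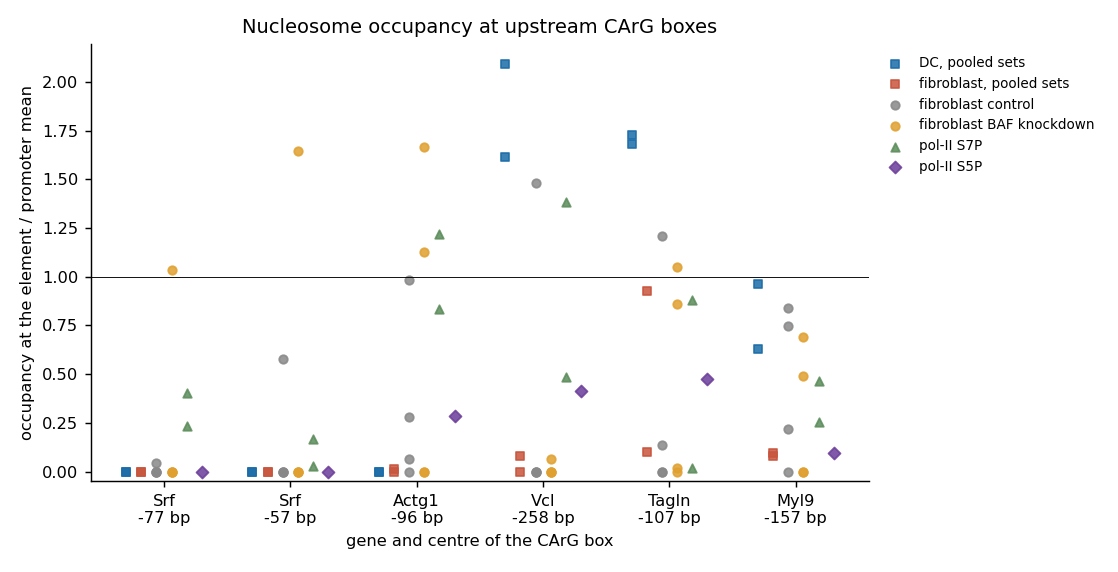
Occupancy within 25 bp of 6 upstream CArG boxes divided by the mean of the promoter (y axis) in each library, by gene and distance of the box from the start site (x axis). At Vcl both DC sets (blue) lie above 1.5 and both pooled fibroblast sets (red) near 0.

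Of 48 further genes of the actin cytoskeleton and of SRF regulation, 47 were found, with 56 promoters, 27 of them (22 genes) of high coverage. Between non-stimulated DCs and fibroblasts 7 of the 27 were higher in DCs by more than 1 and 5 lower, against 22% and 17.2% of all high-coverage promoters, with a median of 0.031 against 0.050 over all. The 3 highest were Flna (4.30), the filament crosslinker filamin A, Cnn3 (3.91), a calponin, and Pxn (3.89), the adhesion adaptor paxillin. Cnn3 was at −0.25 and −0.055 in the pooled sets of DCs and −4.16 and −4.42 in those of fibroblasts. Its single control libraries gave −0.86, −0.082, −0.040 and −2.67, and its knockdown libraries −1.36, −3.38, −3.37 and −1.47. Its transcript was listed at 0.0509 FPKM in DCs and 116 in fibroblasts, in columns whose scales differ. After LPS, Flna and Pxn were at −4.29 and −3.90 in DCs, near the −4.53 and −3.85 of stimulated fibroblasts. In the single H3K4me1 libraries of fibroblasts, Flna ranged from −3.24 to 1.97 and Pxn from −3.04 to 1.42. The 3 lowest were Rhoa (−4.24), a GTPase that drives actin assembly, a start of Tpm3 (−2.42) and Csrp1 (−2.36), a LIM protein of actin filaments. Rhoa changed sign after stimulation, at 5.78. Among the regulators, a start of Mkl1 (gene of the cofactor MRTF-A) was depleted in all 4 pooled sets (−3.09, −4.33, −2.96 and −4.17). In the single H3K4me1 libraries of fibroblasts that start ranged from −3.38 to 0.27. The other start of Mkl1 was not depleted in the pooled sets (−0.80 to −0.39), and both high-coverage starts of Mkl2 (MRTF-B) lay between −2.02 and 0.86 there. Myocd, the cofactor of heart and smooth muscle, was listed at 0 in both cell-types. In the limma fits 0 of the 27 passed for TNF-α, knockdown or S7P, with smallest adjusted p-values of 0.899, 0.922 and 0.236 in that order.

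Profiles alike that of a member were sought among 13134 promoters, as Pearson's correlation over the 200 bins of the 4 pooled sets (800 values, which share libraries and neighbouring bins). For Srf the nearest was a histone H4 gene, H4f16 (r = 0.462, against a median of 0.033 over all promoters). For Actb and Acta2 the 3 nearest reached 0.396 to 0.453 and 0.328 to 0.348. The nearest other member was Actb for Srf (0.105), Cnn1 for Actb (0.136) and the upstream Tpm1 start for Acta2 (0.180).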

How the data were processed

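ChIP-MNase occupancies of 15 libraries were used. The authors aligned reads to mm9 with bowtie, removed excess duplicates and extended single-end reads or kept paired-end fragments of 140 to 180 bp, and counted fragments per 10 bp bin. Counts were divided by the level of the 1 kb around them and smoothed over 50 bp, which can mask differences that span a whole promoter. The submitters' processing notes list Bowtie2 and bedtools. The deposited values are thus a signal without read counts, in 200 bins around each start site, and empty bins were read as 0. The deposited promoter annotation gives a coverage score (fragments over 2 kb) and expression in FPKM from public RNA-seq, per the file headers and the study's methods. Its 2 columns of the authors' expression differences upon stimulation were not used. Depth is unknown beyond the coverage score and the percentage of bins with fragments.

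RefSeq names were matched to current symbols for 24924 (96.3%) promoters. NDR ratios and patterning levels of promoters with a score above 100 were compared with limma 3.58.1 (R 4.3.3), other values with Python 3.11.15 and pandas 2.3.3. limma was tested on simulated data. Patterning templates came from high-coverage promoters with expression above 0.02 times the mean, inducible ones included. Alternatives were a replicate block, an added value of 0.5, all promoters, other windows and reference, an interaction fit, other scalings of patterning and leaving out each library. Libraries with the same replicate number did not deviate together (r −0.018 to 0.028). Labels call the single libraries replicates without naming separate cultures, so p-values measure the spread between these libraries. The members, gene lists and tests were chosen with earlier results of these data known. All members are named, together with the regulators and the 3 highest and 3 lowest of the 48 further genes. The sequence of 1 promoter is not reported here. CArG boxes were searched over both strands at once, as the pattern equals its reverse complement.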

Additional observations from a re-analysis of the deposited data

Results flagged for a closer look

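Among 22 groups of 4 libraries (11 promoters in control and in BAF-knockdown cells), 2 held a library far from the other 3, by Dixon's test at a critical value of 0.829. Chance gives such a gap in about 1 of 20 groups of continuous values. That rate does not hold here, because in both groups the other 3 libraries had an empty window and sat at the floor. In non-stimulated knockdown replicate 1, Vcl was at a log2 NDR ratio of −0.78 while the other knockdown libraries lay between −3.29 and −3.19, and Actb was at −0.67 while the others lay between −3.38 and −3.20. The gap was 0.957 of the range for Vcl and 0.936 for Actb. Both knockdown libraries of replicate 1 carry another code in their names than the other single H3K4me1 libraries. Its part in these values was not tested.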

How the results depend on the processing

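No member was called in the main fits or in any of 66 alternatives, counted for each comparison. Beside 0 calls among all promoters, fits of all promoters called 3 for TNF-α and 46 for S7P, and leaving out a library called between 0 and 2 for TNF-α (2 without the stimulated control replicate 1) and 0 in the other comparisons. With a replicate block, 0 promoters and 0 members were called for the knockdown, TNF-α and S7P and no call changed, while the interaction was not fitted with the block (715 promoters had an unadjusted p under 0.05 for the knockdown, 779 for TNF-α and 1282 for S7P, and 778 and 749 for patterning). Counts of pooled differences beyond 1, higher and lower together, depended on the added value and on coverage: with 0.5 added they were 3114 and 3558 between DCs and fibroblasts (non-stimulated and stimulated), 2864 upon LPS and 3199 upon TNF-α, and over all promoters 11296, 11974, 11084 and 10565.

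Signs of small, uncalled differences were not stable. For the knockdown, the internal Tpm1 start ranged from −0.191 (without the stimulated control replicate 2) to 0.956 when single libraries were left out, and Vcl from −0.143 (without the non-stimulated knockdown replicate 1) to 0.852, with −0.096 without both libraries of knockdown replicate 1 (chosen after seeing the data). For TNF-α, Acta2 was 0.082 in the shifted window, 0.108 relative to 2 kb, −0.469 to 0.394 when single libraries were left out (4 of 8 above 0) and 0.057 without both. In the same comparison Myl9 ranged from −0.304 to 0.731 (−0.105 without both), the upstream Tpm1 start from −0.374 to 0.869, and Vcl from −0.846 to 0.149 (0.18 without both, 0.347 in the shifted window). For S7P, Acta2 ranged from −1.01 to 0.419 and the upstream Tpm1 start from −0.822 to 1.41, their extremes coming from leaving out either stimulated control, and the latter was −0.934 in the shifted window. Actg1 between stimulated cell-types was 0.323 in the shifted window. The cause was not tested. Depth beyond the coverage score is unknown, and 6 members have a score below 100.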
